A study of Homo sapiens with 6 samples.

Results

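Metalloproteases and their inhibitors were followed gene by gene in SW480 cells, an established line from a human colorectal adenocarcinoma. The members were the protein-coding rows whose symbol is MMP, ADAM, ADAMTS or TIMP followed by a number, together with RECK. There were 67 such genes among 63677 identifiers, of which 19488 were protein-coding: 23 MMP, 20 ADAM, 19 ADAMTS and 4 TIMP genes and RECK. A further 8 rows with such a symbol were left out as pseudogenes, and of these only ADAM1A, with 25 to 31 counts per library, had more than 2 counts in any library. PolyA RNA had been sequenced from 3 libraries of cells carrying a vector that encodes GFP (green fluorescent protein) and from 3 libraries of cells carrying a vector that encodes POU5F1B, a retrogene copy of the pluripotency gene POU5F1. Cells of both groups were transduced, the transgene was placed under a doxycycline-inducible promoter, and all were given 1 µg/mL doxycycline for 72 h, so both groups carry a vector and the drug. Per the methods of the study the vectors were lentiviral, the proteins carried an HA tag and the cells were selected in puromycin, so that each group is a transduced population of a single line and not a set of clones. The labels do not say whether libraries of a group came from separate transductions or cultures, so p-values measure only the spread between these libraries, which may be technical.

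Metalloproteases of these families are zinc enzymes made as inactive precursors. Matrix metalloproteinases (MMPs) are secreted or membrane-anchored and cleave collagens and other matrix proteins, and gut tumours are known to show several of them, often from stromal cells and not the epithelium. ADAMs are membrane proteins that shed the outer parts of receptors, growth factors and adhesion molecules, ADAMTS enzymes are secreted and act on proteoglycans, procollagens and other matrix proteins, and the TIMPs and the membrane-anchored protein RECK inhibit members of these families.

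The 6 libraries held 10767947 to 12787637 counts, so that 3 counts, the floor used here, corresponded to 0.235 to 0.279 CPM of these totals. All other CPM values are counts divided by the library size after TMM scaling. POU5F1B had 6, 5 and 1 counts in GFP replicates 1, 2 and 3 and 15027, 11393 and 1458 counts in the POU5F1B replicates. Replicate 3 stood apart in both groups. The SD over all tested genes of the log2 difference between a pair of libraries was 0.33 for GFP replicates 1 and 2 but 0.99 and 0.92 for GFP replicate 3 against them, and it was 0.34, 0.58 and 0.62 for the corresponding POU5F1B pairs. Over the tested members alone the same SDs were 0.37, 1.36 and 1.41 in GFP cells and 0.32, 0.75 and 0.75 in POU5F1B cells. The comparison is therefore given with all 6 libraries and, for the genes described, also with replicates 1 and 2 only. Epithelial markers were present throughout, with a summed level of 6365 to 9579 CPM in GFP and 7908 to 8929 CPM in POU5F1B libraries over 7 of 7 tested markers. Among the 7 fibroblast markers, COL3A1 was at 0 in every library and 2 were tested. The summed level of all 7 was 28.0 to 172 CPM in GFP and 13.4 to 22.7 CPM in POU5F1B libraries. The 5 leukocyte markers summed to 1.14 to 2.61 and 1.85 to 4.75 CPM, with CD68 at 0 in all libraries, and the 2 endothelial markers found, VWF and CDH5, to 1.22 to 5.98 and 2.58 to 6.53 CPM. These bulk samples are of a single line, so a marker level is not a count of fibroblasts, leukocytes or endothelial cells. Fewer cells expressing a gene and less of its RNA per cell cannot be told apart.

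At more than 3 counts, 30 genes were detected in all 6 libraries, 10 in some and 27 in none, and 17 of the 27 had no count at all. Detection was least frequent among the MMPs, of which 8 of 23 were detected in all libraries and 12 in none. For the ADAMs these numbers were 8 and 8 of 20, and for the ADAMTS genes 9 and 7 of 19. By contrast, all 4 TIMP genes and RECK were detected in all 6 libraries. The number of genes detected in a single library lay between 35 and 38 in both groups, and the members together took 0.183%, 0.170% and 0.112% of all counts in GFP replicates 1, 2 and 3 and 0.144%, 0.138% and 0.132% in the POU5F1B replicates.

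**Figure D1:**
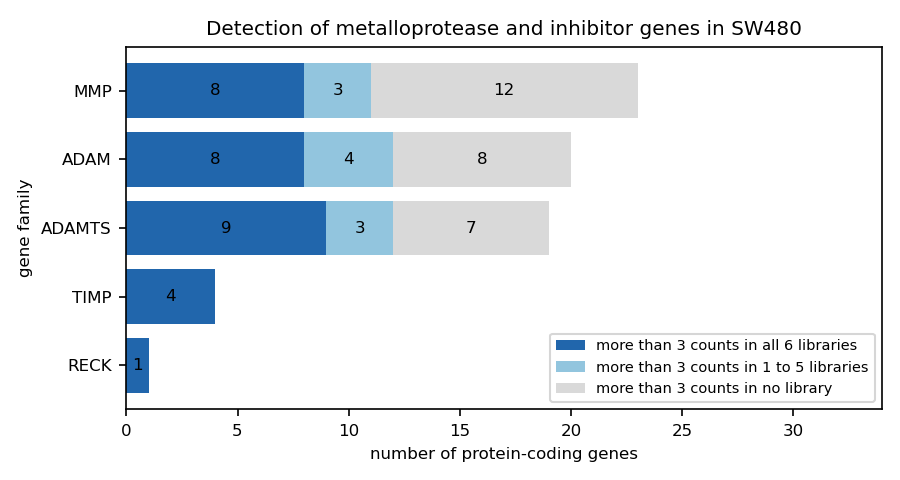
Number of genes of each family detected at more than 3 counts in all 6 libraries, in some and in none. All 4 TIMP genes and RECK fall in the first class, whereas 12 of 23 MMP genes were detected in no library.

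The 3 collagenases, MMP1, MMP8 and MMP13, which cut fibrillar collagen, were all untested for low counts. MMP1 was counted 2, 1 and 2 times across GFP libraries and 3, 7 and 2 times with POU5F1B, MMP8 had at most 2 and MMP13 at most 1. The stromelysins MMP3 and MMP10 had at most 1 count per library, and the metalloelastase MMP12 had none. These genes lie with MMP7, MMP20 and MMP27 in 1 cluster of 9 genes on chromosome 11, from 102391239 to 102826461 (GRCh37). Of the 9 genes only MMP7, a matrilysin that carcinoma cells are known to make, passed the filter on low counts. Its counts were 13, 8 and 97 across GFP libraries against 17, 18 and 36 with POU5F1B, so that replicate 3 was the highest of its group in both.

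Over the 6 libraries the mean level was 72.2 CPM per kilobase of exon for TIMP1 and 49.3 for TIMP2, followed by ADAM19 at 32.0, TIMP3 at 25.1, ADAM15 at 20.4, MMP14 at 15.6 and ADAMTS8 at 10.1. ADAMTS14 at 6.58 and MMP24 at 6.40 came next, and RECK was at 1.09. TIMP1 was at 81.2, 76.1 and 45.2 CPM per kilobase in GFP and at 82.6, 77.4 and 70.6 in POU5F1B replicates 1, 2 and 3. TIMP2 was at 83.4, 71.9 and 23.3 in GFP and at 39.4, 39.0 and 38.8 in POU5F1B replicates 1, 2 and 3. TIMP1 was thus above TIMP2 in every library but GFP replicate 1. The denominator was the union of all annotated exons. With the length of the canonical transcript in its place, TIMP1 was at 136, TIMP2 at 83.8, ADAM15 at 45.7 and ADAM19 at 38.0 CPM per kilobase, and ADAM15 passed ADAM19, so which ADAM is highest depends on the length used. By the mean over the 6 libraries MMP14 was the highest MMP and ADAMTS8 the highest ADAMTS with either length. In GFP replicate 3, however, MMP24, at 9.11 CPM per kilobase of exon, lay above MMP14 at 7.98, and ADAMTS14, at 4.92, above ADAMTS8 at 2.96. Orders within single libraries, also that of TIMP1 and TIMP2, were taken by exon union only and may differ with the canonical length.

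**Figure D2:**
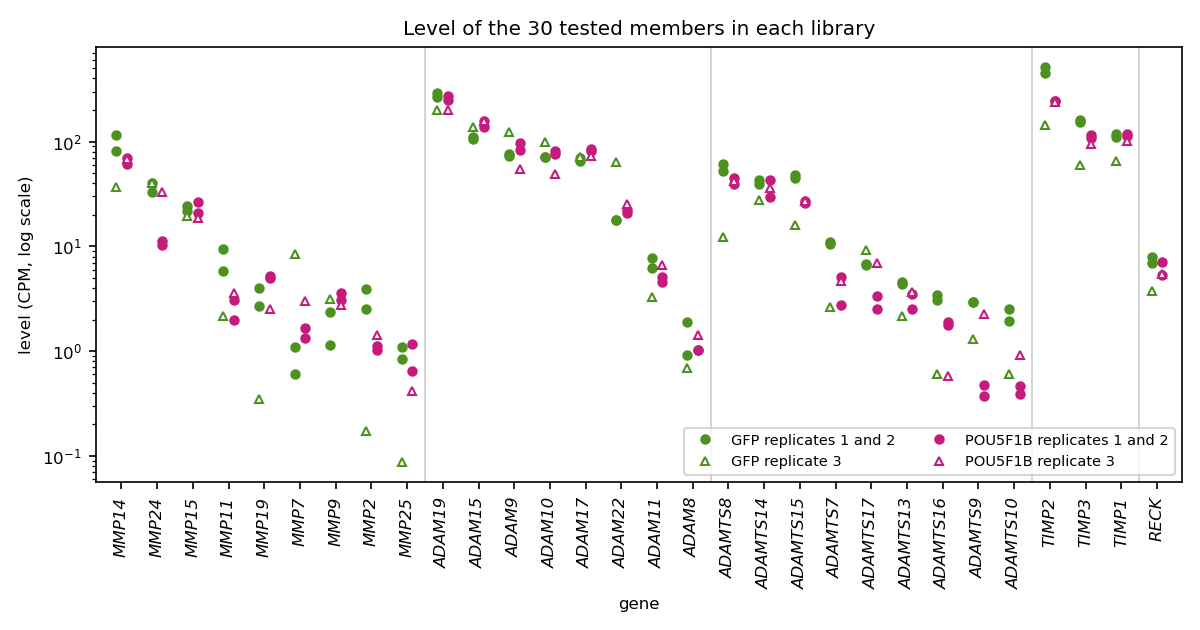
Level of the 30 tested genes in CPM on a log axis, grouped by family, with filled circles for replicates 1 and 2 and open triangles for replicate 3. The values are not divided by length, so points compare libraries within a gene, and GFP replicate 3 is the lowest of the 6 for 16 genes.

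To set these levels beside the sequence at the start of the genes, RefSeq windows of the GRCh38.p14 assembly from 250 bases before to 50 bases after a start site were searched for 4 motifs; 40 of the 67 genes had a window. The 250 bases before the start are shown for the highest TIMP and MMP, for MMP24, which had the smallest adjusted p of the members, and for MMP7, the 1 tested gene of the chromosome 11 cluster (chosen after its values were seen). Each is written 5′ to 3′ on the strand of its gene, and capitals mark GC boxes in TIMP1, MMP14 and MMP24 and, in MMP7, an AP-1 site followed by a TATA box.
TIMP1, chrX:47582186-47582435, plus strand: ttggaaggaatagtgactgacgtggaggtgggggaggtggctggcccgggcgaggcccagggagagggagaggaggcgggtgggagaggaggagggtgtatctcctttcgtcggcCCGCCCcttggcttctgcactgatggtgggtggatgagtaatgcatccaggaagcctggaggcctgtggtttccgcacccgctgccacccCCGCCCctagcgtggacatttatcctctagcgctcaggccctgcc
MMP14, chr14:22836335-22836584, plus strand: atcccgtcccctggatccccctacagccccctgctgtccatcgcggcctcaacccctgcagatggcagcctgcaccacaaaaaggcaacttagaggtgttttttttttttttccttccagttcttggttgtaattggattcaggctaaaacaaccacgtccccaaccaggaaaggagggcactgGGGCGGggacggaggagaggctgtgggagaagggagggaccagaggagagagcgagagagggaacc
MMP24, chr20:35226440-35226689, plus strand: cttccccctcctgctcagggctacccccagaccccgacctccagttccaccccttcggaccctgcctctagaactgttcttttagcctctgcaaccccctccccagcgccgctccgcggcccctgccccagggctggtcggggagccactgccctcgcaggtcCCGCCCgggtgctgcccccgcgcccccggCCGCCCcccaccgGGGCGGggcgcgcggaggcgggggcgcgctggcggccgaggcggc
MMP7, chr11:102530748-102530997, minus strand: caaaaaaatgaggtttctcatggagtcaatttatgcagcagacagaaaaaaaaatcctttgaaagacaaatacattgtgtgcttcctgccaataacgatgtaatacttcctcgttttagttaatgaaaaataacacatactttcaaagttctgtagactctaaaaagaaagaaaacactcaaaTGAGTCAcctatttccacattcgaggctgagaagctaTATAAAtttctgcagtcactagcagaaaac
The GC box (GGGCGG, or CCGCCC on the other strand), the letters bound by SP-family factors, was in the windows of 17 of 19 tested members and 10 of 21 untested members, and in 45.0% of all 35116 windows. TATAAA, searched on the strand of the gene only, was in 1 of 19 tested and 6 of 21 untested members and in 7.33% of all windows. The AP-1 site (TGACTCA, or TGAGTCA on the other strand) was in the MMP7 window alone among the 40 members, and in 4.95% of all windows. The octamer (ATGCAAAT, or ATTTGCAT on the other strand), the letters known for POU-domain factors, was in none of the 40 and in 1.77% of all windows. A member was counted if any of its windows held the motif, whereas the share over all windows counts each window singly, so these are unlike measures. A match of letters is a description of these windows and no evidence of binding.

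The comparison of POU5F1B with GFP cells asked which genes change when POU5F1B is overexpressed. With all 6 libraries no metalloprotease or inhibitor gene passed the threshold of an adjusted p under 0.05 with more than a 2-fold change in limma voom, nor did any other gene, which is 0% of the 14286 genes tested. POU5F1B itself, despite the counts given above, did not pass it either, so a gene without a call may still have changed. The number of members called was also 0 with edgeR, where no gene passed, and with DESeq2, where 1.62% of all genes passed. Of the 67 members, 30 passed the filter on low counts and were tested: 9 MMP, 8 ADAM, 9 ADAMTS and 3 TIMP genes and RECK. At an unadjusted p under 0.05 there were 3 of 30, against 11.9% of all genes tested. ADAM15 was higher, against 6.07% of all genes, and MMP24 and ADAMTS17 were lower, against 5.82%. The 3 GFP and 3 POU5F1B values did not overlap for 2 of the 30 genes, MMP24 and ADAM17, against 19.4% of all genes. ADAM17 was the 1 member of these with higher values, against 10.2%, and MMP24 the 1 with lower values, against 9.24%. The fitted log2 fold change was above 0 for 10 of 30 members and below 0 for 20, while it was above 0 for 46.9% of all genes. The median was -0.10 over the members and -0.02 over all tested genes. Thus 10.0% of the members had a p under 0.05 and 6.67% had no overlap, neither above the share among all genes.

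**Figure D3:**
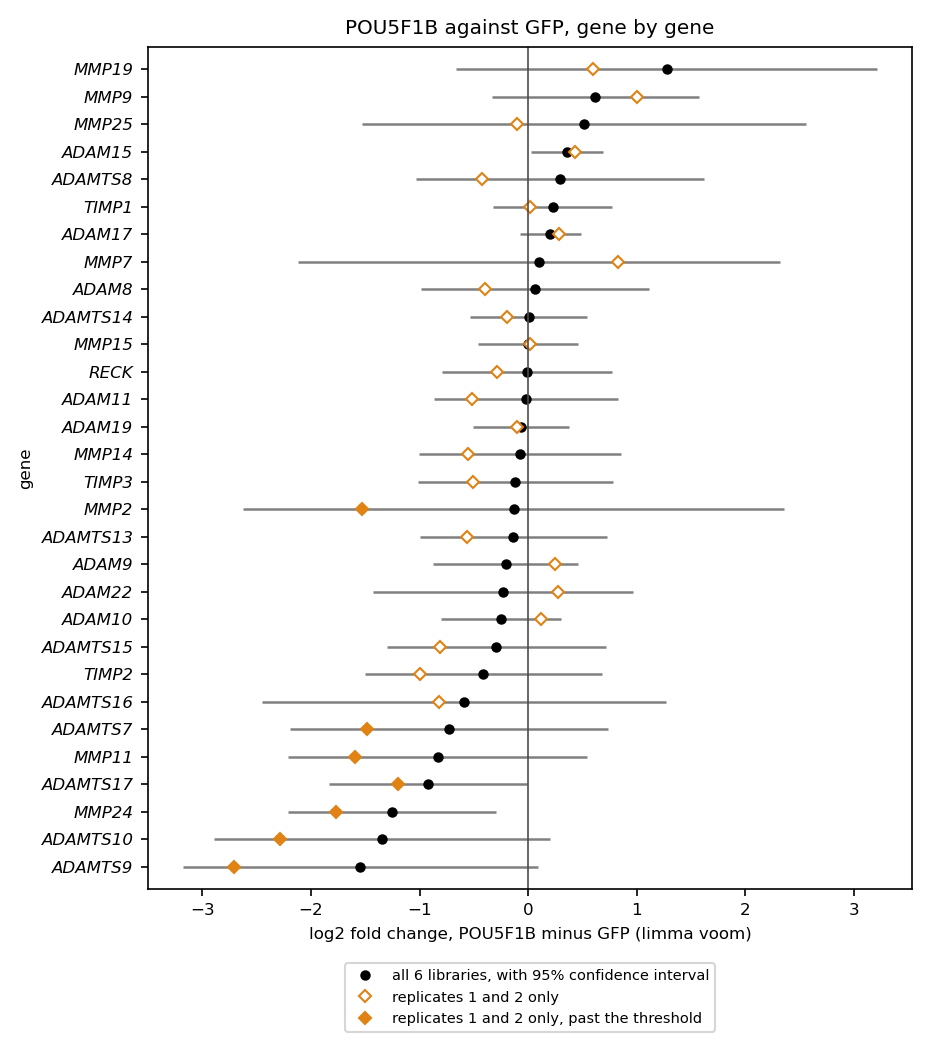
log2 fold change of POU5F1B against GFP cells for the 30 tested genes, with all 6 libraries (black points, bars for the 95% confidence interval) and with replicates 1 and 2 only (diamonds, filled where past the threshold). For genes with filled diamonds, all 7 of them lower, the estimate without replicate 3 lies further from 0 than the estimate with it.

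Among the membrane-type MMPs, which act at the cell surface, 4 of 6 were tested. MMP24 (MT5-MMP), at 33814493 to 33864801 on chromosome 20 (GRCh37), is known for cleaving N-cadherin in neural tissue. It stood at 40.4, 33.1 and 39.9 CPM in GFP replicates 1, 2 and 3 and at 11.2, 10.4 and 33.1 CPM in POU5F1B replicates 1, 2 and 3. POU5F1B replicates 1 and 2 were far below all GFP libraries, whereas POU5F1B replicate 3 reached the lowest GFP library to within the rounding given here. The mean was 37.8 ± 4.05 CPM with GFP and 18.2 ± 12.9 CPM with POU5F1B (SD, n = 3). The log2 fold change was -1.25 ± 0.40 (SE; 95% interval -2.22 to -0.29), with an adjusted p of 0.323 in limma voom. With replicates 1 and 2 only it was -1.77 ± 0.17, with an adjusted p of 1.24e-05 in limma voom. That fit, also given for genes below, rests on 2 libraries a group. In it 29.7% of all genes had an adjusted p under 0.05 in limma voom. Exons of MMP24OS lie over MMP24 on the opposite strand, and MMP24OS had 498, 606 and 343 counts with GFP and 367, 286 and 424 counts in the POU5F1B libraries. The strand setting of the counting is not given in the sources used here, so reads of these genes may be mixed. Opposite-strand exons are also annotated over ADAM9, ADAM10, ADAM17, ADAM19, ADAMTS9, ADAMTS17, MMP9, MMP19, MMP25 and TIMP2. IAH1, over ADAM17, had 553, 590 and 683 counts in GFP and 840, 747 and 798 counts in POU5F1B libraries. TMEM198B, over MMP19, had 231, 268 and 77 and 183, 169 and 173. CYFIP2 over ADAM19 had 198 to 411 counts, TM2D2 over ADAM9 257 to 399 and MMP25-AS1 over MMP25 11 to 25. The same limit holds for these genes. Opposite-strand genes over ADAM10 and ADAMTS9 had 0 counts in every library, and those over ADAMTS17, MMP9 and TIMP2 at most 2.

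MMP14 (MT1-MMP), the membrane collagenase that activates the MMP2 precursor together with TIMP2, was at 115.5, 80.9 and 36.9 CPM in the GFP libraries and at 70.2, 61.7 and 68.8 CPM in the POU5F1B libraries. GFP replicate 3 was the lowest of all 6 and the other GFP libraries the highest. Its log2 fold change was -0.07 ± 0.39, and the estimate turned to 0.27 without GFP replicate 1 and to 0.054 without GFP replicate 2. With replicates 1 and 2 only it was -0.56 ± 0.15, with an adjusted p of 0.0141 in limma voom, whereas the log2 ratio between the replicate 3 libraries was 0.90. MMP15 lay between 18.7 and 26.7 CPM in all 6 libraries.

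The secreted MMPs that passed the filter were low. MMP19, a protease of basement membrane proteins, was at 2.70, 4.04 and 0.348 CPM in GFP and at 5.19, 5.01 and 2.50 CPM in POU5F1B libraries, with a log2 fold change of 1.28 ± 0.81 and an adjusted p of 0.579 in limma voom. GFP replicate 3 held 4 counts of it, and the other 5 libraries 30 to 66, and with replicates 1 and 2 only the log2 fold change was 0.60 ± 0.27. The gelatinase MMP2 (given because of its change without replicate 3, as are MMP9, MMP11 and ADAMTS7 below) had 47, 33 and 2 counts in GFP and 13, 12 and 17 counts in POU5F1B libraries. GFP replicate 3 was thus the lowest of the 6, and the log2 fold change was -0.13 with all libraries and -1.53 with replicates 1 and 2 only. The gelatinase MMP9 had 28, 15 and 36 counts in GFP and 39, 39 and 33 counts in POU5F1B libraries, with overlapping groups and a log2 fold change of 0.62 ± 0.40, which was 1.00 ± 0.37 with replicates 1 and 2 only (adjusted p of 0.0597 in limma voom). MMP11 (stromelysin 3), known from the stroma of carcinomas, had 112, 76 and 25 counts in GFP and 25, 33 and 43 counts in POU5F1B libraries, with a log2 fold change of -0.83 ± 0.58 with all libraries and -1.59 ± 0.34 with replicates 1 and 2 only.

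**Figure D4:**
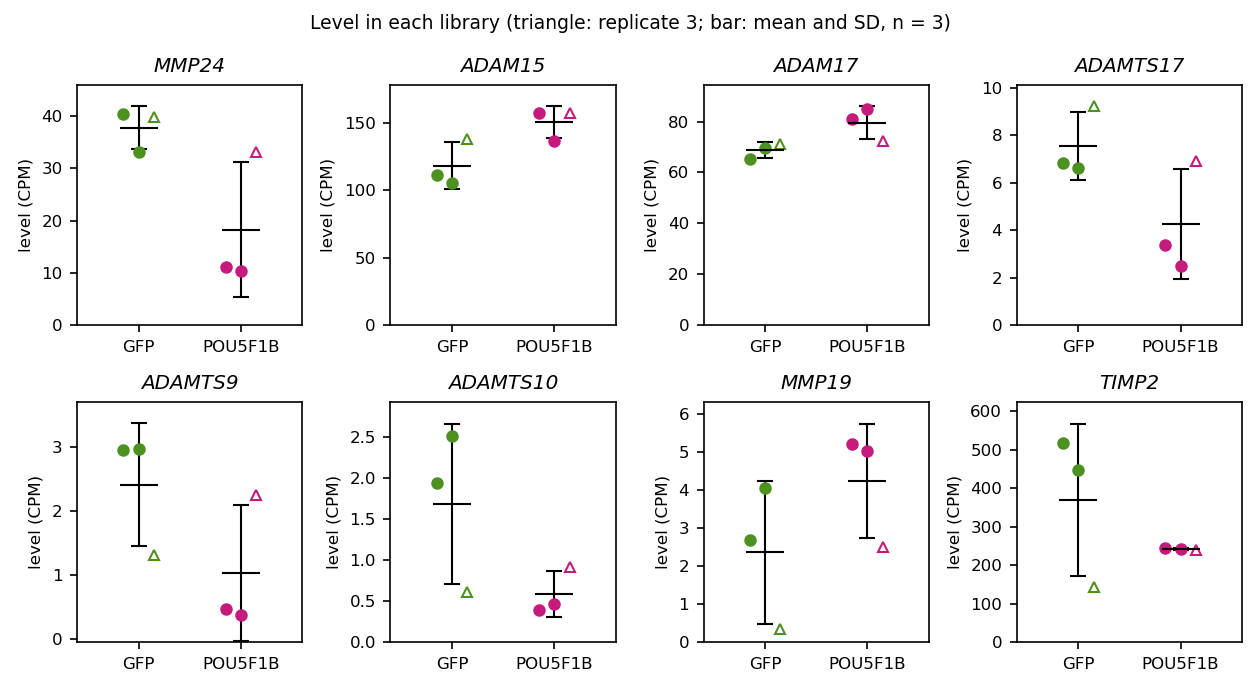
Level in CPM of 8 genes in each library, with circles for replicates 1 and 2, triangles for replicate 3 and bars for the mean and SD (n = 3). For MMP24 and ADAMTS9 the POU5F1B triangle lies well above the POU5F1B circles, and for TIMP2 the GFP triangle lies below every other point.

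Of the ADAMs with a protease site, 6 of 12 were tested, and 3 had a higher and 3 a lower estimate. ADAM15, a membrane protease that also binds integrins, was at 111, 105 and 138 CPM in GFP and at 157, 136 and 157 CPM in POU5F1B libraries. The groups overlapped only through GFP replicate 3, which lay just above POU5F1B replicate 2. The mean was 118 ± 17.5 CPM against 150 ± 11.9 CPM (SD, n = 3), a log2 fold change of 0.36 ± 0.14 (95% interval 0.02 to 0.69) with an adjusted p of 0.389 in limma voom. Without replicate 3 it was 0.43 ± 0.10, with an adjusted p of 0.0052 in limma voom, below the 2-fold limit.

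ADAM17, the sheddase of tumour necrosis factor and of several ligands of the EGF receptor, was at 65.4, 69.6 and 71.4 CPM in GFP and at 81.0, 85.1 and 72.3 CPM in POU5F1B libraries. All POU5F1B libraries were above all GFP libraries, the closest pair being the replicates numbered 3. The mean was 68.8 ± 3.08 against 79.5 ± 6.51 CPM (SD, n = 3), a log2 fold change of 0.20 ± 0.12 with an adjusted p of 0.531 in limma voom. Without replicate 3 it was 0.28 ± 0.10, with an adjusted p of 0.0411 in limma voom. ADAM10, which sheds Notch and E-cadherin (given as the companion of ADAM17, after its values were seen), had 837, 945 and 1148 counts in GFP and 960, 873 and 592 counts in POU5F1B libraries. Its log2 fold change was -0.25 ± 0.23 (95% interval -0.81 to 0.31), and it was 0.12 without both replicate 3 libraries.

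ADAM19, a protease known for the cleavage of neuregulins, was at 294, 264 and 199 CPM in GFP and at 271, 250 and 199 CPM in POU5F1B libraries, so that the libraries with the same number lay close to each other. Its log2 fold change was -0.06 ± 0.19 with an adjusted p of 0.925 in limma voom, and -0.11 ± 0.08 with replicates 1 and 2 only. Of the 8 ADAMs without protease activity 2 were tested, and ADAM22, known as a receptor of LGI proteins in neurons, had 733 counts in GFP replicate 3 against 211 to 308 in the other 5 libraries.

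Of the 9 tested ADAMTS genes 2 had a higher and 7 a lower estimate, with a median of -0.59, and 0 of 9 passed the threshold. ADAMTS17, which is known to act on fibrillin microfibrils, was at 6.82, 6.63 and 9.22 CPM in GFP and at 3.38, 2.50 and 6.91 CPM in POU5F1B libraries. POU5F1B replicate 3 lay above the lower GFP libraries, and in both groups replicate 3 was the highest. The log2 fold change was -0.92 ± 0.38 with an adjusted p of 0.411 in limma voom, and it was -1.19 ± 0.26 with replicates 1 and 2 only.

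ADAMTS9, which cleaves the proteoglycans aggrecan and versican, was at 2.95, 2.97 and 1.31 CPM in GFP and at 0.472, 0.371 and 2.25 CPM in POU5F1B libraries. The difference was downward in replicates 1 and 2 and upward in replicate 3. The log2 fold change was -1.55 ± 0.69 (95% interval -3.18 to 0.09) with an adjusted p of 0.435 in limma voom. ADAMTS10, also known from fibrillin microfibrils, was at 1.94, 2.51 and 0.609 CPM in GFP and at 0.393, 0.463 and 0.916 CPM in POU5F1B libraries, a log2 fold change of -1.34 ± 0.65 with an adjusted p of 0.473 in limma voom. ADAMTS7, which cleaves the cartilage protein COMP, had 130, 139 and 30 counts in GFP and 65, 30 and 56 counts in POU5F1B libraries. It too was lower in POU5F1B replicates 1 and 2 and higher in POU5F1B replicate 3 than in the GFP library of the same number.

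The proteoglycanases ADAMTS8 and ADAMTS15 are neighbours on chromosome 11 between 130274818 and 130346540 (GRCh37), with 20035 bases between them. ADAMTS8 was at 60.9, 51.9 and 12.3 CPM in GFP and at 45.0, 39.1 and 42.1 CPM in POU5F1B libraries. ADAMTS15, given as its neighbour, was at 45.2, 47.8 and 16.0 CPM in GFP and at 26.2, 27.3 and 27.4 CPM in POU5F1B libraries. For both genes GFP replicates 1 and 2 were the highest and GFP replicate 3 the lowest of the 6. The log2 fold change of ADAMTS8 was 0.29 ± 0.56 with all libraries and -0.43 with replicates 1 and 2 only, and that of ADAMTS15 was -0.29 ± 0.42 and -0.81.

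Of the 5 inhibitors 4 were tested, and TIMP4 had 4 to 14 counts per library. TIMP2, the inhibitor that also takes part in MMP2 activation, was at 518, 447 and 145 CPM in GFP and at 245, 242 and 241 CPM in POU5F1B libraries. The POU5F1B libraries lay within a few CPM of each other, with GFP replicates 1 and 2 above and GFP replicate 3 below them. The means were 370 ± 198 and 243 ± 1.93 CPM (SD, n = 3), a log2 fold change of -0.41 ± 0.46 with an adjusted p of 0.753 in limma voom. With replicates 1 and 2 only the log2 fold change was -0.99 ± 0.09, with an adjusted p of 5.05e-06 in limma voom, and it missed the 2-fold limit. The log2 ratio between the replicate 3 libraries went the opposite way, at 0.74.

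TIMP3, which binds to the matrix and inhibits ADAM17 as well as MMPs, was at 160, 154 and 59.8 CPM in GFP and at 107, 116 and 94.7 CPM in POU5F1B libraries, with a log2 fold change of -0.12 ± 0.38 with all libraries and -0.51 ± 0.09 with replicates 1 and 2 only. TIMP1 was at 117, 110 and 65.3 CPM in GFP and at 119, 112 and 102 CPM in POU5F1B libraries, with a log2 fold change of 0.23 ± 0.23 with all libraries and 0.013 ± 0.09 with replicates 1 and 2 only. RECK was at 7.84, 7.01 and 3.74 CPM in GFP and at 5.35, 7.14 and 5.41 CPM in POU5F1B libraries, and its log2 fold change of -0.011 ± 0.33 turned above 0 with upper-quartile or total-count scaling and was -0.28 ± 0.23 with replicates 1 and 2 only. For TIMP1, TIMP2, TIMP3 and RECK alike, GFP replicate 3 was the lowest of the 6 libraries. The summed level of the 4 TIMP genes was 796, 711 and 270 CPM in GFP and 472, 471 and 438 CPM in POU5F1B libraries.

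GFP replicate 3 was the lowest of the 6 libraries for 16 of the 30 tested members and the highest for 5. The 2 tested fibroblast markers, COL1A1 and PDGFRB, had a lower estimate. COL1A1 was at 142, 118 and 16.9 CPM in GFP and at 6.76, 5.56 and 9.49 CPM in POU5F1B libraries, and PDGFRB at 28.2, 28.7 and 7.22 and at 8.73, 7.69 and 12.5 CPM, so that GFP replicate 3 was the lowest GFP library for both but above every POU5F1B library for COL1A1. Of the untested ones, COL1A2 had 19, 19 and 1 counts in GFP and 0, 2 and 1 in POU5F1B libraries, and THY1 had 3, 9 and 7 and 3, 0 and 2. LUM had 34 counts in GFP replicate 3, 5 in POU5F1B replicate 3 and 0 in the other 4 libraries, and DCN had at most 3 counts. Of the 7 epithelial markers 6 had a higher and 1 a lower estimate. EPCAM was at 86.8, 89.4 and 519 CPM in GFP and at 320, 331 and 252 CPM in POU5F1B libraries, and CDH1, which encodes E-cadherin, at 33.7, 30.2 and 72.7 and at 164, 159 and 98.3 CPM. CDX2, the marker with the lower estimate, was at 27.7, 19.5 and 33.2 CPM in GFP and at 16.4, 14.6 and 37.05 CPM in POU5F1B libraries, and the log2 fold change of KRT8 was 0.096. Mitochondrial genes took 6.95% to 8.62% of counts, with the highest share in GFP replicate 3. The part of these differences in the results above was not tested.

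With replicates 1 and 2 only, 7 of 30 members were past the threshold, all lower in POU5F1B cells, against 8.36% of all genes, 5.15% in the lower and 3.21% in the higher direction. The 7 were ADAMTS9 (log2 fold change -2.71), ADAMTS10 (-2.28), MMP24 (-1.77), MMP11 (-1.59), MMP2 (-1.53), ADAMTS7 (-1.49) and ADAMTS17 (-1.19). At an adjusted p under 0.05 in limma voom without the fold limit there were 14 of 30 members, against 29.7% of all genes, 12 lower, TIMP2 and TIMP3 among them, and 2 higher, ADAM15 and ADAM17. This fit rests on 2 libraries a group. Replicate 3, set as a single pair with no test, had the same sign as replicates 1 and 2 for 7 of 30 members. Among the 7 members past the threshold it had the same sign for MMP24, at -0.27, and ADAMTS17, at -0.42, and the opposite sign for the other 5. With GFP replicate 3 alone left out, 4 members were past the threshold, namely ADAMTS10, ADAMTS7, MMP11 and MMP2, against 4.16% of all genes. With all 6 libraries weighted by their quality, 7 members were past the threshold, MMP9 higher and 6 lower, against 8.15% of all genes. The weights were 1.56, 3.35 and 0.0998 for GFP replicates 1, 2 and 3 and 3.32, 1.12 and 0.513 for the POU5F1B replicates. This fit therefore also rests little on GFP replicate 3.

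**Figure D5:**
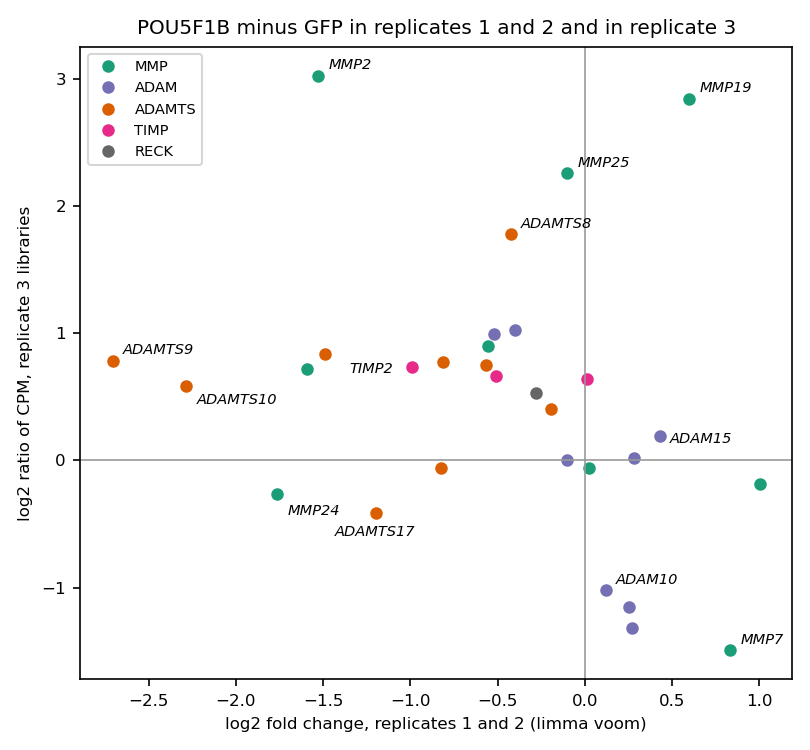
log2 fold change with replicates 1 and 2 only (horizontal axis) against the log2 ratio of CPM between the replicate 3 libraries (vertical axis) for the 30 tested genes, coloured by family. The sign is the same on both axes for 7 genes, among them MMP24 and ADAMTS17 at the lower left, and the high points of MMP2, MMP19 and MMP25 rest on 2, 4 and 1 counts in GFP replicate 3.

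Genes that act on these proteases or are related to them were counted in 4 lists, and in each list 0 genes passed the threshold with all 6 libraries. In the fit of replicates 1 and 2, 4 genes of these lists passed it, against 8.36% of all genes, and they are named below for that. Of 8 tested partners of ADAM10 and ADAM17, 2 had a higher and 6 a lower estimate with a median of -0.05, and the smallest p was that of TSPAN5, a tetraspanin that carries ADAM10 through the cell, with a log2 fold change of -0.71 ± 0.18 and an adjusted p of 0.241 in limma voom. The next was RHBDF2, a partner of ADAM17, at 0.30 with an adjusted p of 0.531 in limma voom. Of the 4 proprotein convertases, which cut the precursor forms, 3 had a higher estimate and 1 a lower one, with a median of 0.19, PCSK7 at -0.31 and PCSK5 at 0.29. Of 7 tested MMP cofactors and inducers, 1 had a higher and 6 a lower estimate with a median of -0.29, with LCN2, a binding partner of MMP9, at 0.73 and CD44, a cell surface anchor of MMPs, at -0.29. In replicates 1 and 2, LCN2 was past the threshold at 1.31, and so were LRP1, an endocytic receptor that takes up MMPs, at -1.64 and SPOCK2, a matrix proteoglycan, at -1.28. Replicate 3 went the opposite way for all of these. From GFP to POU5F1B it went from 17.4 to 12.7 CPM for LCN2, 7.48 to 25.3 for LRP1 and 0.435 to 1.67 for SPOCK2. With all 6 libraries LRP1 was at -0.53 and SPOCK2 at -0.27. Of 6 tested astacins and ADAM-like genes, 4 had a higher and 2 a lower estimate with a median of 0.25, with ADAMTSL4 at 0.76 and the procollagen C-proteinase BMP1 at -0.42. In replicates 1 and 2, ADAMTSL4 was past the threshold at 1.03, and replicate 3 had the same direction, with 5.13 CPM in GFP and 5.83 CPM in POU5F1B.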

How the data were processed

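PolyA RNA of SW480 cells was measured in 3 GFP and 3 POU5F1B libraries, grouped and numbered by their titles. The authors deposited 1 table of unnormalized whole-number counts per library, made from a stranded mRNA kit by mapping with HISAT2 to hg19 and counting with featureCounts (tool names per the labels). The study's methods keep uniquely mapped reads, which can lose reads shared by close paralogs. Neither the counting's strand option nor the annotation release is given in the sources used here. A symbol was matched to 87.4% of identifiers. Coordinates of genes, exon lengths and overlaps are from a GENCODE annotation on GRCh37, the build named hg19, and promoter windows are from RefSeq on GRCh38.p14.

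Low genes were removed by filterByExpr (edgeR 4.0.16), libraries were scaled by TMM, and genes were tested with voom of limma 3.58.1 in R 4.3.3 on all 6 libraries with group only. The study's methods give voom, the moderated test and the limits, and the filter and the model without a block were chosen here. P-values were adjusted by Benjamini-Hochberg over all 14286 genes, and a gene was called at an adjusted p under 0.05 and over 2-fold. Levels are CPM without a prior count, and log2 fold changes are those of voom. Alternatives were edgeR's quasi-likelihood test, DESeq2 1.42.0, sample quality weights, other scalings and filters, the replicate number as a block, replicates 1 and 2 only, leaving out each library, and the canonical transcript length, the last added after seeing the data. The tests were run on simulated data in which 200 of 14286 genes changed 4-fold, with the spread of all 6 libraries. limma voom called 152 of the 200 and 8 unchanged genes, edgeR 156 and 9, and DESeq2 173 and 33. Simulated libraries of a group were drawn alike, without a replicate that stood apart.

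Values in every library are given for tested members with an unadjusted p under 0.05, without overlap of groups or with a log2 fold change beyond 1, for the highest member of each family per length, for TIMP1, TIMP2, TIMP3, RECK and MMP1, and for others where said. For each pathway list given, the 2 genes of smallest p are named; a further list is not reported here. The members and lists were chosen with earlier results of these data known. The floor covers counting error only, as reads lacked molecular identifiers and need not be separate molecules. Same-numbered libraries deviated together with r of 0.24, 0.088 and 0.16, and differently numbered ones with r of -0.28 to 0.25. These values do not settle whether the numbers are pairs. The main fit did not take them as pairs, and the replicate block among the alternatives did.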

Additional observations from a re-analysis of the deposited data

How the results depend on the processing

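With all 6 libraries, 0 members were past the threshold under every scaling, every filter, edgeR, DESeq2 and the replicate block; at an unadjusted p under 0.05 there were 3 members in limma voom, 2 in edgeR and 2 in DESeq2. The count of members was 7 with sample quality weights (ADAMTS10, ADAMTS7, ADAMTS9, MMP11, MMP2, MMP24 and MMP9), 7 with replicates 1 and 2 only, and 0 to 4 without 1 library, the 4 without GFP replicate 3. Over all genes it was 0 in limma voom and edgeR, against 232 with DESeq2, 1165 with quality weights, 4 with no filter, 1 with the replicate block, 1194 with replicates 1 and 2 only and 0 to 595 without 1 library, the 595 without GFP replicate 3 and 5 without POU5F1B replicate 3; the cause was not tested. The members' median log2 fold change was -0.10, -0.16 with the replicate block, -0.41 with replicates 1 and 2 only and -0.40 to 0.048 without 1 library. Of the genes given in every library, ADAMTS8 turned to -0.29 with quality weights and -0.43 with replicates 1 and 2 only, ADAM10 to 0.027 and 0.12, and RECK to 0.047 with upper-quartile scaling, 0.036 with total counts, 0.00058 with no filter and 0.016 with at least 10 counts in every library. Without 1 library the log2 fold change ranged from -0.54 to 0.27 for MMP14, -0.23 to 0.073 for ADAM19, -0.43 to 0.70 for ADAMTS8, -0.046 to 0.38 for TIMP1, -0.59 to 0.13 for TIMP3, -0.34 to 0.18 for RECK, -1.40 to 0.65 for MMP2 and -0.80 to 0.021 for ADAMTS15, and, with no change of direction, from 0.26 to 1.99 for MMP19, 0.21 to 0.91 for MMP9, -0.997 to -0.077 for TIMP2, -1.40 to -0.38 for MMP11, -1.40 to -0.37 for ADAMTS7 and -0.38 to -0.022 for ADAM10. Over 20 such genes, 275 values kept their direction and side of the threshold, 18 passed it and 23 turned. Depth limits the 27 members at or under 3 counts in every library, whose absence cannot be told from a low level.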

Other observations

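ADAMTS19, an orphan secreted protease that was not tested because it did not pass the filter on low counts, had 8, 2 and 548 counts in GFP replicates 1, 2 and 3 and 3, 4 and 146 counts in the POU5F1B replicates. Replicate 3 was thus far above the other libraries in both groups. The epithelial marker VIL1, which encodes villin of the microvilli, was at 23.1, 14.0 and 211 CPM in GFP and at 42.7, 37.6 and 111 CPM in POU5F1B libraries, also highest in replicate 3 of each group. ADAM23, which lacks protease activity, had 10, 6 and 8 counts in GFP and 2, 6 and 20 counts in POU5F1B libraries, and MMP17, a membrane-type protease with a lipid anchor, had 5 to 12 counts in every library.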
